A study of Bos taurus with 28 samples.

Results

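Gene expression in subcutaneous adipose tissue (SCAT) was compared between biopsies taken about 6 days after calving (PP1) and biopsies taken about 11 days before the expected calving date (PreP). The study gives these days with a spread of days between cows, and the sample labels give the time point only. Every PreP and every PP1 library of the series entered the comparison, 19 of its 28 libraries, and biopsies from 13 days after calving, which the series also holds, entered a single alternative fit and no comparison. There were 9 libraries at PreP and 10 at PP1, from 11 cows, and 8 cows gave both. The animals were healthy, multiparous Holstein cows. At PreP they were pregnant, not in milk and fed a close-up ration, and at PP1 they were in early lactation and fed a fresh-cow ration, so that calving, lactation and ration cannot be told apart in this design. All biopsies came from the right flank with the incision shifted between collections, and a PP1 biopsy therefore followed an earlier one in that flank. Of 24616 Ensembl genes counted, the 18467 with at least 3 reads in at least 1 of the 19 libraries were tested. A gene symbol was available for 1751 of them, those that the retrievable copy of the annotation published with the study pairs with one, and the description below rests on these genes. Their genome coordinates were not used here.

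SCAT consists of adipocytes, which store triglyceride, and of a stromal vascular fraction with preadipocytes, fibroblasts, endothelial cells, macrophages and lymphocytes. Around calving a dairy cow spends more energy than it eats. Adipocytes then form less fat and release fatty acids (FA) and glycerol by lipolysis, and macrophages that take up lipid and debris can gather in the tissue. In RNA from whole tissue, fewer cells of a type and less RNA per cell cannot be told apart.

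Total counts ran from 15293154 to 20818965 per library at PreP and from 16397849 to 22284884 at PP1, and 3 reads corresponded to between 0.137 and 0.203 CPM (counts scaled to a common library size, with TMM factors). Of the defining adipocyte genes chosen for this check, 3 of 7 have a symbol here. PPARG, the master regulator of adipocytes, had 125.3 to 249.9 CPM at PreP and 58.8 to 228.4 CPM at PP1, and the lactate receptor HCAR1 had 8.53 to 32.02 and 2.63 to 38.05 CPM. The third, the FA receptor FFAR4, is described with the adipocyte genes. Casein CSN2 and the hair keratins KRT74 and KRT85 had 0 reads in every library, while the third skin gene, the transglutaminase TGM3, was present with 2.56 to 27.1 CPM at PreP and 0.675 to 16.6 CPM at PP1. The muscle genes LMOD2, PYGM and MYOZ2 stayed at or below 2.98 CPM. ADIPOQ, LEP, PLIN1 and FABP4 have no symbol here and were not analysed.

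The library labelled PP1 of cow B5169 stood apart from the other 9. On the first principal component of log2 CPM, which held 25.9% of the variance, it scored -73.1, just beyond the PreP libraries (-70.8 to -18.4), while the other PP1 libraries scored -4.75 to 92.4. To describe each library without its own influence, genes were called in a fit that left its cow out, and the share of them on which the library was nearer to the median of its own time point was counted. That share was 8.35% of 1748 genes for the library labelled PP1 of cow B5169. It ran from 42.6% to 95.8% over the other 9 PP1 libraries, with the lowest value in cow B4987. It was 52.4% for the library labelled PreP of cow B5169, and 78.8% to 93.6% for the other 8 PreP libraries. Both libraries of this cow were kept under their labels, and the main counts are given with and without the one labelled PP1, and once without the cow. The fit without that library was chosen after the data were seen. In several genes below the libraries of this cow ran opposite to those of the other cows, and whether their labels are exchanged was not tested.

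The PP1 library of cow B5102 also stood apart, by another measure. Its median Spearman correlation with the other PP1 libraries was 0.945, beside 0.942 for the library labelled PP1 of cow B5169 and at least 0.963 for the others. The 10 most abundant genes took 22.2% of its reads, the highest share of the 19 libraries. Without cow B5102 there were 373 upregulated and 47 downregulated DEGs.

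Between PP1 and PreP, 744 genes were differentially expressed (DEGs), defined by an FDR under 0.05 in the quasi-likelihood test of edgeR and an absolute log2 fold change above 1. Of all genes tested, 3.34% (616) were upregulated and 0.693% (128) were downregulated. Among the 1751 genes with a symbol, 62 were upregulated (3.54%) and 9 downregulated (0.514%), close to the shares of all genes. For the counts by other measures given below, 24.6% of all genes had an unadjusted p under 0.05 in edgeR, DESeq2 called 4.81% of genes up and 1.66% down, and limma voom with sample quality weights called 4.48% up and 4.14% down. For the counts of signs given below, the edgeR fit gave 9853 of the 18467 genes a positive log2 fold change and 8614 a negative one. Standard errors (SE) of the log2 fold change come from the same fit. The log2 fold changes of these 71 genes ran from 1.02 to 4.16 upward and from -1.12 to -2.51 downward. In the 8 cows with both libraries, 13 of the 62 upregulated genes were higher at PP1 in every cow and 38 more in 7 of 8. The library labelled PP1 of cow B5169 was the lowest of the PP1 libraries for 42 of the 62. The 10 PP1 libraries all lay above the 9 PreP libraries for 6 of the 18467 genes (0.0325%) and all below them for 1 (0.00542%), and for 0 of the 62. The 9 other PP1 libraries lay above every PreP library for 13 of the 62, beside 0.694% of all genes above and 0.434% below. The 62 were called by their difference between these same libraries, so a higher share among them is built in and is no separate support.

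The calls depended on how cows entered the fit. Without the library labelled PP1 of cow B5169 there were 949 upregulated DEGs (5.15% of 18444 genes) and 681 downregulated DEGs (3.69%), 8.84% together. All 71 genes with a symbol kept their call there, and 24 upregulated and 53 downregulated genes with a symbol were added. With cow as a block, 47 genes were upregulated (0.255%) and 11 downregulated (0.0596%), 0.314% together. Of the 71 genes, 5 kept their call with the block, among them NPL, LUM, CD200R1L and ISLR2, and all 71 kept their direction. With cow as a random effect in limma voom, 50 of the 71 kept their call, and 45 genes with a symbol were upregulated and 40 downregulated. Leaving out whole cows gave 296 DEGs without B5129, 330 without B5090, 420 without B5102, 432 without B5064, 444 without B4886, 484 without B5054 and 1748 without B5169. Of the 71 genes, 28 were called with each of the 11 cows left out in turn, and up to 39 lost their call without a single cow, B5129.

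**Figure D1:**
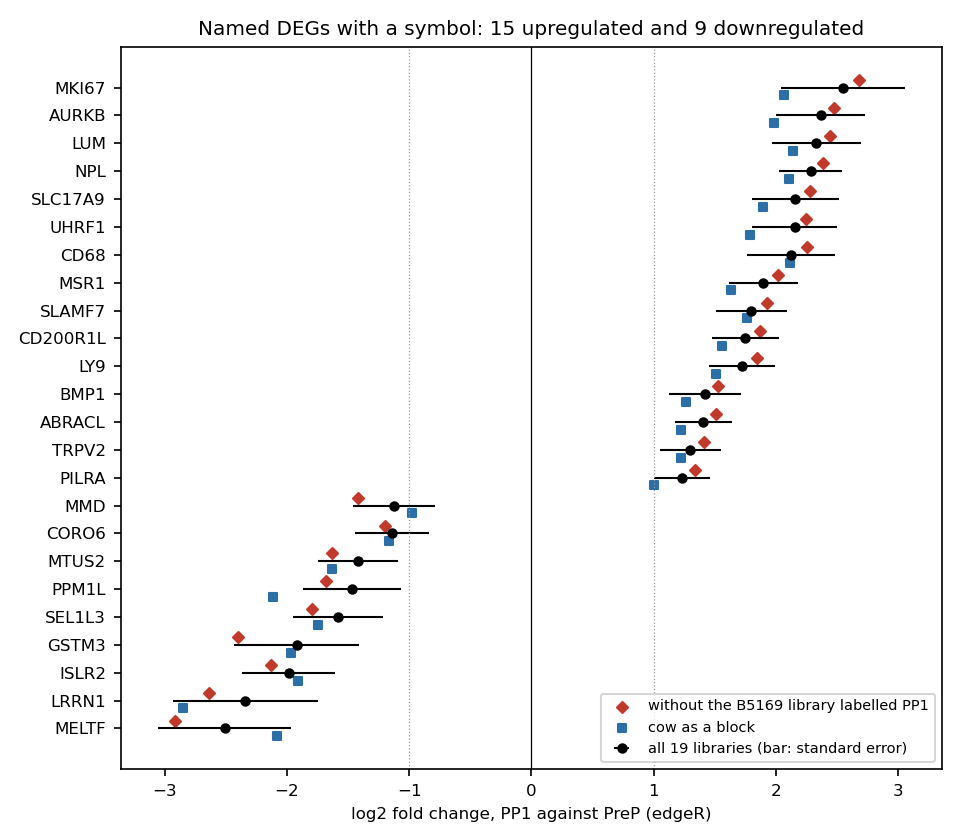
Log2 fold change at PP1 against PreP (x axis, edgeR) for the 15 upregulated and 9 downregulated DEGs of smallest p that have a symbol (y axis). Black points with standard errors are the fit to all 19 libraries, red diamonds leave out the library labelled PP1 of cow B5169 and blue squares add cow as a block. Every gene stayed on its side of 0 in all 3 fits.

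Macrophage genes were among the increases at PP1. Of 46 listed, 14 had a symbol here and were tested. All 14 had a positive log2 fold change, 6 of them (42.9%) were upregulated and 0 downregulated, beside 3.34% and 0.693% of all genes. The median log2 fold change of the 14 was 0.70, against 0.04 for all genes tested.

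The level of CD68 was 17.9 to 102 CPM at PreP (median 41.6) and 31.2 to 359.6 CPM at PP1 (median 222). CD68 thus had a log2 fold change of 2.12 ± 0.362 (SE) at an edgeR FDR of 0.00314, was higher at PP1 in 7 of 8 cows, with p = 0.000487 by exact permutation. CD68 (ENSBTAG00000000133) is a glycoprotein of macrophage lysosomes and endosomes. The 9 other PP1 libraries all exceeded the highest PreP library, and the library labelled PP1 of cow B5169, at 31.2 CPM, was the lowest of the 10. The level of MSR1 was 7.07 to 29.2 CPM at PreP (median 17.8) and 14.7 to 96.6 CPM at PP1 (median 76.4). In edgeR this gave a log2 fold change of 1.90 (SE 0.284, FDR 0.00249), higher values at PP1 in 7 of 8 cows. Exact permutation over the libraries gave p = 0.000195. MSR1 (ENSBTAG00000002885), the class A scavenger receptor that takes up modified lipoproteins, had the same split, with the B5169 library labelled PP1 inside the PreP range and the other 9 above it. With cow as a block the adjusted p of edgeR was 0.0656 for CD68 and 0.0625 for MSR1, above the threshold for both.

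GPNMB, a transmembrane glycoprotein of lipid-laden macrophages, had 47 to 131 CPM at PreP (median 88.3) and 65.3 to 745 CPM at PP1 (median 243). Its log2 fold change in edgeR was 1.49 (SE 0.312, FDR 0.00896) and its exact permutation p was 0.00107, and 7 of 8 cows had higher values at PP1. The lowest of its PP1 libraries was that of cow B5169 and the highest that of cow B5102. PILRA, an inhibitory receptor of myeloid cells, had 7.34 to 12.4 CPM at PreP (median 9.26) and 7.23 to 42.5 CPM at PP1 (median 23). By edgeR, PILRA changed by a log2 fold change of 1.23 (SE 0.229, FDR 0.00444). The change was upward in 7 of 8 cows, with an exact permutation p of 0.000704. For GPNMB and PILRA the 9 other PP1 libraries again lay above all PreP libraries. The last 2 upregulated members were the myeloid inhibitory receptor CD300A (log2 fold change 1.14, FDR 0.0226) and the Ras-association protein RASSF4 (1.30, FDR 0.028). The CD300A call was lost without each of 5 cows and that of RASSF4 without each of 7, with FDRs of up to 0.0749 and 0.0853 from edgeR without B5090. None of the 6 passed with cow as a block, with adjusted p from 0.0625 to 0.155. Without the library labelled PP1 of cow B5169 all 6 passed, and the median of the 14 genes was 0.77. The summed level of the 14 genes was 367.4 to 760.2 CPM at PreP and 706.7 to 1691 CPM in the 9 other PP1 libraries, and 441.1 CPM in that of cow B5169.

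**Figure D2:**
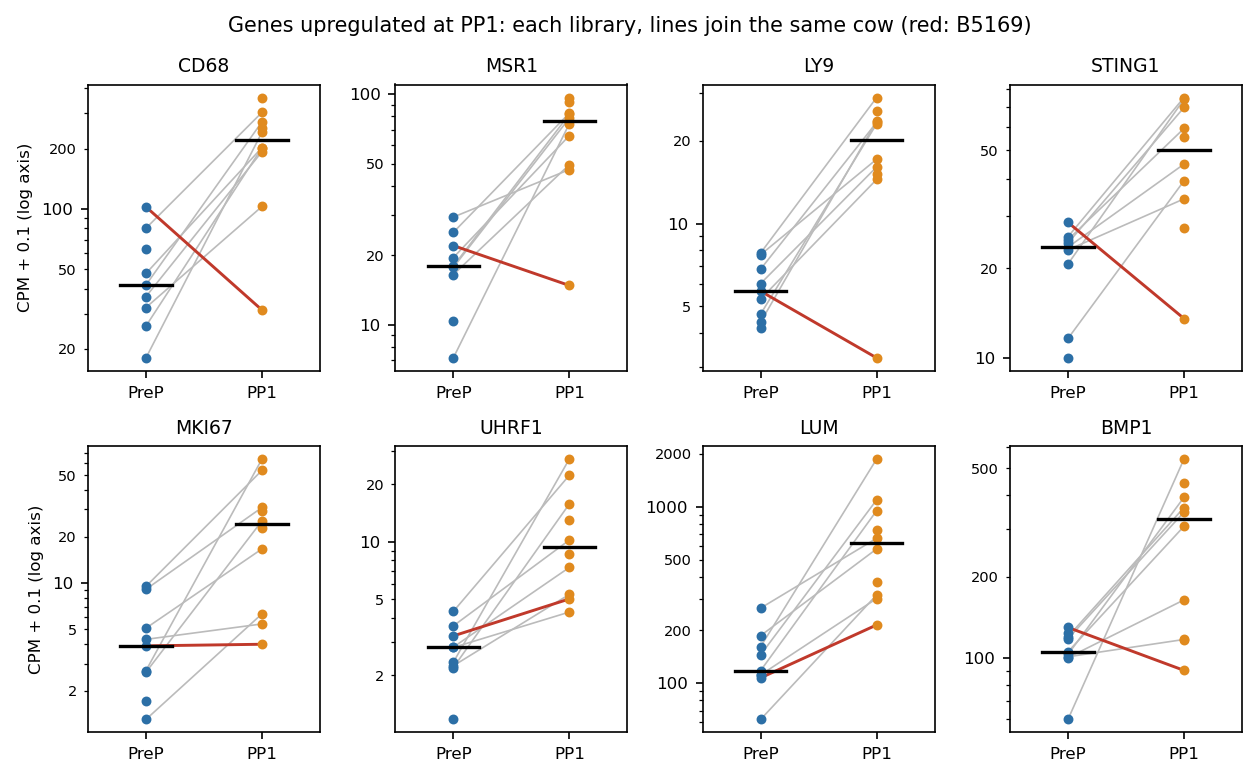
CPM plus 0.1 (y axis, logarithmic) of 8 upregulated genes in each of the 9 PreP (blue) and 10 PP1 (orange) libraries, with medians as black bars. Lines join libraries of the same cow, and the red line is cow B5169, whose library labelled PP1 is the lowest of the 10 for 7 of the 8 genes, all but UHRF1.

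Of 22 lymphocyte genes tested, 2 were upregulated (9.09%, beside 3.34% of all genes) and 0 downregulated, with 19 of 22 log2 fold changes positive and a median of 0.49, and 4 were upregulated without the library labelled PP1 of cow B5169, beside 5.15% of all genes in that fit. Both are receptors of the SLAM family, which act between immune cells. The level of LY9 was 4.05 to 7.72 CPM at PreP (median 5.57) and 3.14 to 28.7 CPM at PP1 (median 20.02). The log2 fold change of LY9 was 1.72 with an SE of 0.271 and an FDR of 0.00249 in edgeR, with higher values at PP1 in 7 of 8 cows. The two-sided exact permutation p was 0.000563. The level of SLAMF7 was 2.41 to 8.93 CPM at PreP (median 7.68) and 3.79 to 36.5 CPM at PP1 (median 24.1). SLAMF7 thus had a log2 fold change of 1.799 ± 0.291 (SE) at an edgeR FDR of 0.00249, was higher at PP1 in 7 of 8 cows, with p = 0.000487 by exact permutation. For each, the 9 other PP1 libraries lay above every PreP library and that of cow B5169 was at 3.14 CPM for LY9 and 3.79 CPM for SLAMF7. The block raised the adjusted p of edgeR to 0.0596 and 0.0625. SASH3, a signalling adaptor of lymphocytes, passed the FDR (0.0208) but not the fold change, at a log2 fold change of 0.85.

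Among 8 neutrophil genes, VSTM1, an inhibitory receptor of myeloid cells, was the only DEG (12.5%, beside 3.34% of all genes), and 3 passed without the library labelled PP1 of cow B5169, beside 5.15%. VSTM1 had 2.03 to 7.69 CPM at PreP (median 3.89) and 3.61 to 14.6 CPM at PP1 (median 10.7). In edgeR this gave a log2 fold change of 1.13 (SE 0.256, FDR 0.0131), higher values at PP1 in 7 of 8 cows. Exact permutation over the libraries gave p = 0.00115. Its call was lost without cow B5090 or B5129 (FDR up to 0.0545) and with cow as a block (adjusted p 0.123). The median of the 8 genes was 1.03, with the granule genes CAMP and CD177 at a median of 0 CPM at both time points and a summed level over the list of 12.3 to 37.9 CPM at PreP and 10.7 to 49.4 CPM at PP1. Of 15 pattern-recognition genes, STING1, the adaptor that relays cytosolic DNA sensing, was upregulated (6.67%, beside 3.34% of all genes). It had 9.89 to 28.5 CPM at PreP (median 23.5) and 13.4 to 75.1 CPM at PP1 (median 50.1). Its log2 fold change in edgeR was 1.21 (SE 0.268, FDR 0.0115) and its exact permutation p was 0.0026, and 7 of 8 cows had higher values at PP1. Its adjusted p was 0.0869 with cow as a block. The inflammasome sensor NLRP3 had a log2 fold change of 0.98 (FDR 0.0549), and passed without the library labelled PP1 of cow B5169 (1.07, FDR 0.0114).

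The cytokine and interferon genes tested gave no DEG. Their lists name 67 cytokines, chemokines and receptors and 39 interferon-induced genes, most without a symbol here and so not assessed. Of 19 cytokines, chemokines and receptors tested, 0 passed in edgeR. An unadjusted p under 0.05 was found for 4 of the 19, beside 24.6% of all genes, DESeq2 called 1 and voom 0. The list had a median log2 fold change of 0.27 and a range from -1.44 to 1.26. IL18, an inflammasome product, had 3.1 to 18.5 CPM at PreP (median 8.31) and 4.86 to 57.2 CPM at PP1 (median 16.6), a log2 fold change of 1.15 with an FDR of 0.0943, and 1.27 (FDR 0.0262) without the library labelled PP1 of cow B5169. The chemokine receptor CXCR4 had a log2 fold change of 0.69 (FDR 0.0568). None of 8 interferon-induced genes passed in edgeR, DESeq2 or voom, with 1 at an unadjusted p under 0.05 and a median of -0.03, and LGALS3BP had the smallest p, at -0.70 (FDR 0.0759). None of 6 complement, acute phase and coagulation genes tested, of 39 listed, passed in these tools. Of the 6, 1 had an unadjusted p under 0.05, and their median was -0.10. Without the library labelled PP1 of cow B5169, 1 of them, APOA1, was upregulated.

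Genes of cell division and DNA replication held the most DEGs of the 28 lists. Of 45 tested, 16 were upregulated (35.6%) and 0 downregulated, beside 3.34% and 0.693% of all genes, and 41 of the 45 log2 fold changes were positive. The median was 0.61. Without the library labelled PP1 of cow B5169, 18 were upregulated, beside 5.15% of all genes, and the median was 0.71.

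MKI67, whose protein marks cycling cells, had 1.21 to 9.42 CPM at PreP (median 3.81) and 3.91 to 63.6 CPM at PP1 (median 23.9). By edgeR, MKI67 changed by a log2 fold change of 2.55 (SE 0.507, FDR 0.00682). The change was upward in 8 of 8 cows, with an exact permutation p of 0.00113. It was higher at PP1 in all 8 cows, but 3 of the 10 PP1 libraries, those of cows B5169, B4987 and B5102, stayed below 10 CPM and inside the PreP range. AURKB, a kinase of chromosome segregation, had 0.798 to 1.46 CPM at PreP (median 1.04) and 1.15 to 12.9 CPM at PP1 (median 5.27). The log2 fold change of AURKB was 2.37 with an SE of 0.362 and an FDR of 0.00249 in edgeR, with higher values at PP1 in 8 of 8 cows. The two-sided exact permutation p was 0.000206. Here it was the PP1 library of cow B4987, not that of cow B5169, that fell inside the PreP range. UHRF1, which carries DNA methylation through replication, had 1.07 to 4.22 CPM at PreP (median 2.69) and 4.18 to 27.1 CPM at PP1 (median 9.34). UHRF1 thus had a log2 fold change of 2.16 ± 0.349 (SE) at an edgeR FDR of 0.00249, was higher at PP1 in 8 of 8 cows, with p = 5.41e-05 by exact permutation. Its lowest PP1 library was that of cow B4987, just below the highest PreP value. With the block the adjusted p of edgeR was 0.0646 for MKI67, 0.0596 for AURKB and 0.053 for UHRF1.

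CLSPN, a mediator of the replication checkpoint, rose from a median of 0.848 CPM to 2.97 CPM (log2 fold change 1.92, FDR 0.00971). The mitotic spindle protein DLGAP5 had the log2 fold change 2.89 (FDR 0.00994), from a median of 0.17 CPM at PreP, near the floor of 3 reads. Of the 16 genes, 8 were higher at PP1 in all 8 cows and 7 more in 7 of 8. With single cows left out in turn, 6 of the 16 were always called and 9 lost their call without B5129. CKAP2L, a spindle protein of the list, was called with the block alone (1.16, FDR 0.0382, against 1.09 and 0.0636 without it). The mean level of this list in cow B5169 rose from PreP to PP1, in contrast to its macrophage and matrix lists, and was the lowest of all at both time points.

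**Figure D3:**
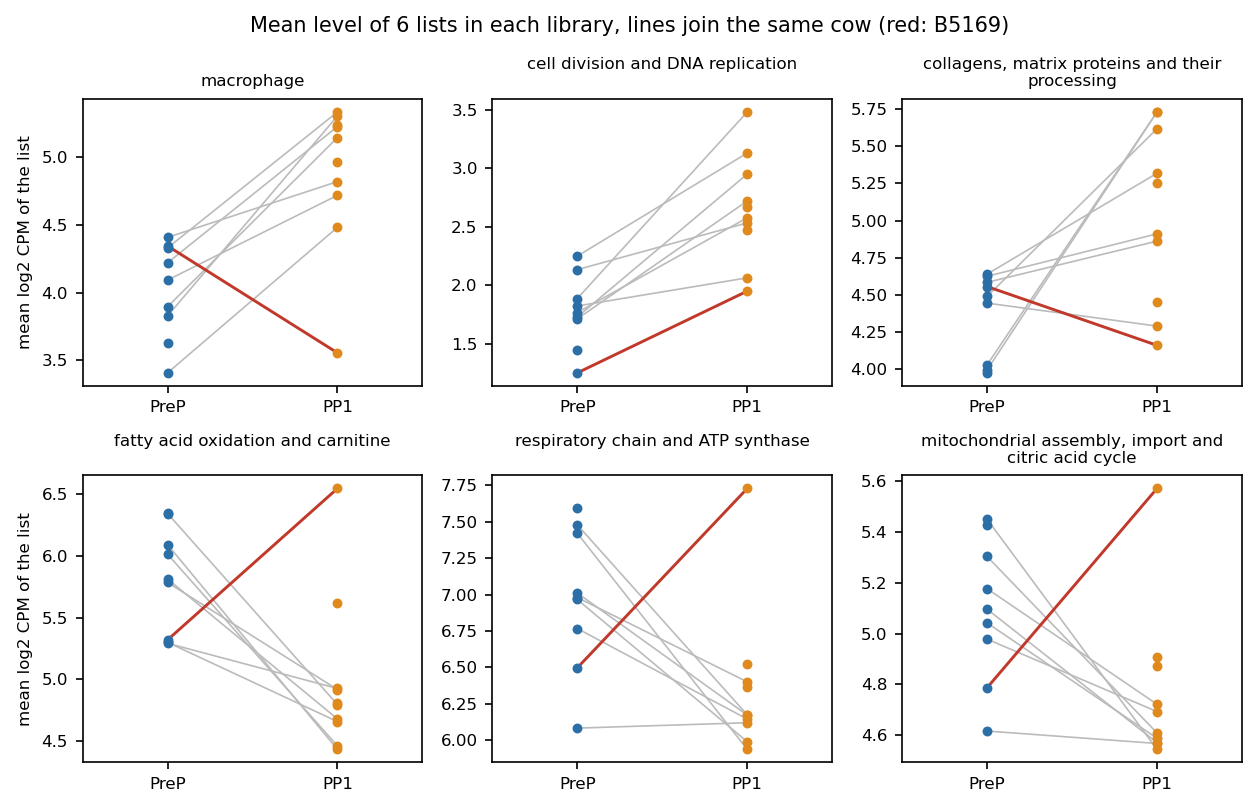
Mean log2 CPM (y axis) of the members of 6 gene lists in each PreP (blue) and PP1 (orange) library. Lines join libraries of the same cow. Cow B5169 (red) ran against the other 7 cows with both libraries in the macrophage, FA oxidation and mitochondrial assembly lists, and against 6 of the 7 in the respiratory chain list, where cow B5165 was nearly level.

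Matrix genes held the second most DEGs. Of 26 collagens, matrix proteins and processing enzymes tested, 7 were upregulated (26.9%, beside 3.34% of all genes) and 0 downregulated, with a median log2 fold change of 0.66, and 10 were upregulated without the library labelled PP1 of cow B5169 (median 0.77), beside 5.15% of all genes. Lumican (LUM, ENSBTAG00000001745), a proteoglycan that spaces collagen fibrils, had 62.3 to 267 CPM at PreP (median 118) and 214 to 1868 CPM at PP1 (median 621). In edgeR this gave a log2 fold change of 2.33 (SE 0.364, FDR 0.00249), higher values at PP1 in 8 of 8 cows. Exact permutation over the libraries gave p = 5.41e-05. It was higher in all 8 cows, and also passed with cow as a block (log2 fold change 2.14, FDR 0.0279). The lowest PP1 library, again that of cow B5169, lay between the second highest and the highest PreP library.

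BMP1, the protease that trims procollagens, had 59.6 to 129.9 CPM at PreP (median 106) and 90.3 to 540.4 CPM at PP1 (median 325). Its log2 fold change in edgeR was 1.42 (SE 0.294, FDR 0.0083) and its exact permutation p was 0.00337, and 7 of 8 cows had higher values at PP1. PI16, a peptidase inhibitor of adventitial fibroblasts, had 79.4 to 490.2 CPM at PreP (median 186) and 101 to 1305 CPM at PP1 (median 782). By edgeR, PI16 changed by a log2 fold change of 1.86 (SE 0.434, FDR 0.0149). The change was upward in 7 of 8 cows, with an exact permutation p of 0.00507. Unlike LUM, BMP1 and PI16 had 3 PP1 libraries inside the PreP range, and their adjusted p with the block was 0.0918 and 0.106. PI16 was also lost without cow B5129 (FDR 0.0591).

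The other members lost their calls more often. THBS3, a thrombospondin, had a log2 fold change of 1.55 (FDR 0.0194), with a highest value of 424 CPM in cow B5102, and was lost without cow B5090, B5102 or B5129 (FDR up to 0.0664). The heparin-binding growth factor pleiotrophin (PTN) had 1.81 to 13.8 CPM at PreP (median 8.33) and 4.74 to 202 CPM at PP1 (median 21.9). The log2 fold change of PTN was 2.68 with an SE of 0.661 and an FDR of 0.02 in edgeR, with higher values at PP1 in 5 of 8 cows. The two-sided exact permutation p was 0.0209. The 202.1 CPM came from cow B5102, and without that cow the log2 fold change was 2.04 with an FDR of 0.0742. The call was also lost without B5064, B5090 or B5129. The growth regulator CCN3 (1.83, FDR 0.028) and tenascin C, TNC (2.38, FDR 0.0413), were lost without each of 7 and 8 cows, with FDRs of up to 0.0946 and 0.148 without cow B5129. LUM was the 1 DEG of the 7 with cow as a block, and the adjusted p of the others ran up to 0.333.

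Genes of neighbouring stromal types rose in small numbers. Of 10 fibroblast, mural and mesothelial genes, LUM, PI16 and mesothelin (MSLN) were upregulated (30%, beside 3.34% of all genes), and the median of the list was 0.14. MSLN was near the floor, with 0.0548 to 0.532 CPM at PreP (median 0.255) and 0.184 to 3.24 CPM at PP1 (median 0.614), and was lost without each of 6 cows (FDR 0.103 without B5102). Of 16 endothelial and lymphatic genes, 2 were upregulated (12.5%, beside 3.34%), the glycoprotein podoplanin (PDPN) and connexin 43 (GJA1). PDPN had 12.2 to 41.1 CPM at PreP (median 26.6) and 7.58 to 153 CPM at PP1 (median 79.6). PDPN thus had a log2 fold change of 1.59 ± 0.39 (SE) at an edgeR FDR of 0.0198, was higher at PP1 in 7 of 8 cows, with p = 0.0173 by exact permutation. Both also occur outside vessels. The calls of PDPN and GJA1 were lost, among others, without cow B5129, B5090 or B5102, with FDRs of up to 0.0762 and 0.0957. Both were also lost with cow as a block, at adjusted p of edgeR from 0.0884 to 0.176. Of LUM, PI16 and MSLN, LUM alone passed with the block. Of 23 matrix and surface proteases, 0 passed in edgeR, with 5 at an unadjusted p under 0.05, beside 24.6% of all genes, 1 called by DESeq2 and 2 by voom. The secreted protease ADAMTS1 had the smallest p, with a log2 fold change of 1.28 (FDR 0.0549), and passed without the library labelled PP1 of cow B5169 (1.35, FDR 0.0225).

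Several increases of small p were in no list. NPL (ENSBTAG00000002266), the lyase that breaks down sialic acid, had the smallest p of all genes with a symbol. The level of NPL was 1.04 to 2.6 CPM at PreP (median 1.3) and 2.55 to 11.8 CPM at PP1 (median 8). In edgeR this gave a log2 fold change of 2.29 (SE 0.258, FDR 0.000211), higher values at PP1 in 8 of 8 cows. Exact permutation over the libraries gave p = 3.25e-05. Every PP1 library except that of cow B5169 lay above every PreP library, and the call held with cow as a block (log2 fold change 2.11, FDR 0.0104). CD200R1L, a receptor related to the CD200 receptor of myeloid cells, had 2.47 to 5.99 CPM at PreP (median 3.38) and 3.08 to 19.2 CPM at PP1 (median 14.5). Its log2 fold change in edgeR was 1.75 (SE 0.274, FDR 0.00249) and its exact permutation p was 0.000336, and 8 of 8 cows had higher values at PP1. It too passed with the block (1.56, FDR 0.0478).

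SLC17A9, the vesicular transporter of ATP, had 1.64 to 5.12 CPM at PreP (median 3.61) and 4.03 to 45.1 CPM at PP1 (median 14.4). By edgeR, SLC17A9 changed by a log2 fold change of 2.16 (SE 0.359, FDR 0.00294). The change was upward in 7 of 8 cows, with an exact permutation p of 0.000141. TRPV2, a calcium-permeable channel, had 16.2 to 36.1 CPM at PreP (median 26.7) and 16.9 to 102 CPM at PP1 (median 64.2). The log2 fold change of TRPV2 was 1.30 with an SE of 0.25 and an FDR of 0.00555 in edgeR, with higher values at PP1 in 7 of 8 cows. The two-sided exact permutation p was 0.00145. The small protein ABRACL rose with a log2 fold change of 1.41 (FDR 0.00284). These 3 genes lost their calls with the block, at adjusted p of 0.0656, 0.0869 and 0.0538. The phospholipid transfer protein PLTP, chosen after its values were seen, had a log2 fold change of 1.31 (FDR 0.0114), and 1.31 with an FDR of 0.118 under the block. FKBP7, a folding enzyme of the endoplasmic reticulum, was the 1 DEG of 16 folding genes (1.20, FDR 0.0234), 6.25% beside 3.34% of all genes up, and 7 of the 16 had an unadjusted p under 0.05, beside 24.6%. Its call was lost without cow B5054, B5090, B5102 or B5129 and with cow as a block (adjusted p 0.103). Single libraries set other calls. The 220.5 CPM of SPP2, a secreted phosphoprotein, in the PP1 library of cow B5102 compared with at most 8.63 CPM at PreP, and without that cow its FDR was 0.245. SPP2 was also lost without each of 7 other cows.

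**Figure D4:**
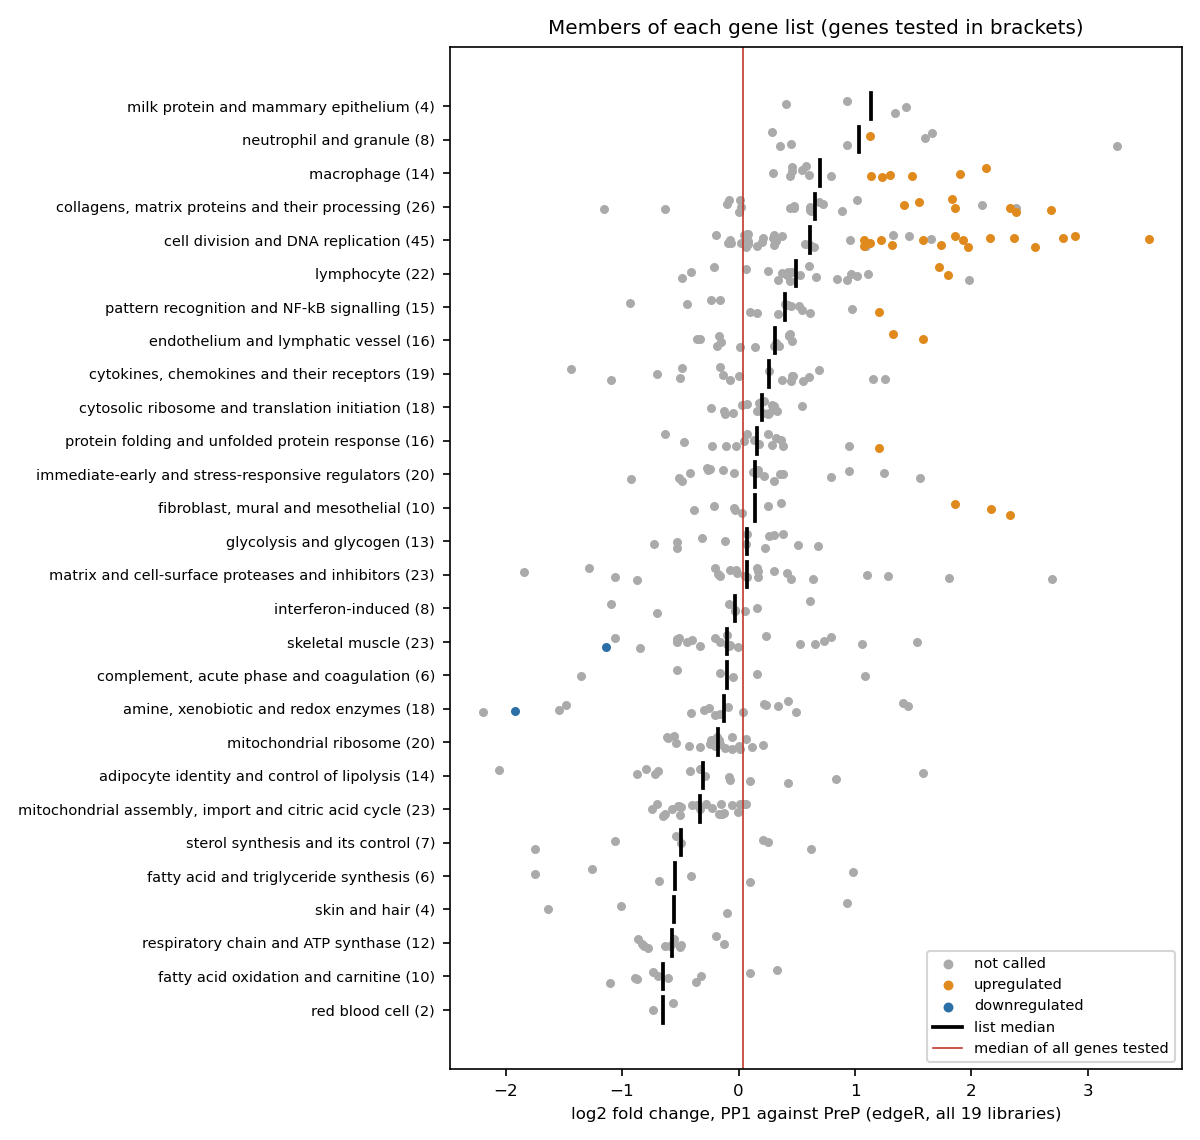
Log2 fold change at PP1 against PreP (x axis) of the members of each of 28 gene lists (y axis, number of genes tested in brackets), in the fit to all 19 libraries. Orange points were upregulated, blue points downregulated and grey points not called. Black bars are list medians and the red line is the median of all genes tested, 0.04.

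The 9 downregulated genes with a symbol did not fall into 1 group, and 7 of them are in no list. ISLR2 (ENSBTAG00000002661), a membrane protein with leucine-rich repeats, had 1.81 to 15.1 CPM at PreP (median 8.78) and 0.781 to 4.47 CPM at PP1 (median 2.08). ISLR2 thus had a log2 fold change of -1.99 ± 0.38 (SE) at an edgeR FDR of 0.00528, was lower at PP1 in 8 of 8 cows, with p = 0.000595 by exact permutation. It was lower at PP1 in all 8 cows, and it was the 1 downregulated gene with a symbol that passed with cow as a block (log2 fold change -1.91, FDR 0.0314). The PreP library of cow B5102, at 1.81 CPM, was the only one inside the PP1 range. PPM1L, a protein phosphatase, had 12.1 to 28.1 CPM at PreP (median 15.6) and 0.473 to 14.2 CPM at PP1 (median 5.37). In edgeR this gave a log2 fold change of -1.47 (SE 0.402, FDR 0.0339), lower values at PP1 in 8 of 8 cows. Exact permutation over the libraries gave p = 0.000325. Here 8 of 10 PP1 libraries lay below every PreP library, and its adjusted p with the block was 0.0728.

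MTUS2, a microtubule-associated protein, had 4.8 to 14.8 CPM at PreP (median 9.11) and 1.01 to 8.06 CPM at PP1 (median 3.05). Its log2 fold change in edgeR was -1.42 (SE 0.324, FDR 0.0137) and its exact permutation p was 0.000401, and 8 of 8 cows had lower values at PP1. MELTF, an iron-binding membrane protein, fell from a median of 0.958 CPM to 0.254 CPM (log2 fold change -2.51, FDR 0.0104). Its PP1 values, 0 to 1.125 CPM, were near the floor of 3 reads. LRRN1, another leucine-rich repeat protein, was lower in all 8 cows (-2.34, FDR 0.0226), with 0 to 1.599 CPM at PP1, in part at that floor. GSTM3, a glutathione transferase, had 19.97 to 297 CPM at PreP (median 77.7) and 4.73 to 95.9 CPM at PP1 (median 25). By edgeR, GSTM3 changed by a log2 fold change of -1.92 (SE 0.511, FDR 0.0298). The change was downward in 6 of 8 cows, with an exact permutation p of 0.00368. SEL1L3 (-1.58, FDR 0.0145), the coronin CORO6 (-1.14, FDR 0.0305) and the membrane receptor MMD (-1.12, FDR 0.0483) completed the group. For 6 of the 9 genes the library labelled PP1 of cow B5169 was the highest of the PP1 libraries. With the block, the adjusted p of the last 7 genes ran from 0.054 for MTUS2 to 0.183 for GSTM3. All but ISLR2, MTUS2 and MELTF also lost their call with 1 or more cows left out, without B5064 with FDRs of 0.0565 for SEL1L3, 0.0904 for LRRN1 and 0.11 for GSTM3, and without B5090 with 0.103 for PPM1L and 0.164 for MMD. CORO6 reached 0.098 without B5129.

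Among genes of fat synthesis, sterol control, lipolysis and FA oxidation, the 37 with a symbol here gave no DEG in edgeR over all 19 libraries. Their 4 lists name 53, 30, 51 and 51 genes, and the change of those without a symbol is not known here. Of the 37, 18 had an unadjusted p under 0.05, beside 24.6% of all genes. DESeq2 called 2, both lower at PP1, beside 1.66% of all genes down. Voom with sample quality weights called 9 lower and 1 higher, beside 4.14% and 4.48%. Their medians were -0.55 for 6 genes of FA and triglyceride synthesis, -0.50 for 7 sterol genes, -0.31 for 14 adipocyte and lipolysis genes and -0.65 for 10 genes of FA oxidation. In these lists the library labelled PP1 of cow B5169 lay within the PreP range of the summed level or above it. Its summed level of the FA oxidation list was 1790 CPM, against 843.6 to 1650 CPM at PreP and 432.0 to 1134 CPM in the other PP1 libraries. Its sum over the synthesis list was 665.3 CPM, against 128.4 to 617.1 at PreP and 105.0 to 228.9 CPM in the others. Without that library, 8 of the 37 genes were downregulated and 1 was upregulated, the lipid phosphate phosphatase PLPP2 (1.10, FDR 0.00985), beside 3.69% and 5.15% of all genes in that fit. In these lists the counts of negative log2 fold changes in the fit to all libraries were 4 of 6, 4 of 7, 10 of 14 and 8 of 10, beside 8614 of all 18467 genes.

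INSIG1, which holds the sterol sensor of lipid synthesis in the endoplasmic reticulum, had 47.9 to 536 CPM at PreP (median 178) and 19.9 to 399.9 CPM at PP1 (median 30.6). Over the 19 libraries INSIG1 had a log2 fold change of -1.75 (SE 0.586, edgeR FDR 0.0748, exact permutation p 0.00249), with lower values in 7 of 8 cows, and leaving out the library labelled PP1 of cow B5169 gave -2.87 (FDR 8.29e-05). The 9 other PP1 libraries ended at 47 CPM, below every PreP library, and that of cow B5169 had 399.9 CPM. PCK1, the cytosolic carboxykinase that supplies glycerol for triglyceride, had 17.7 to 189.5 CPM at PreP (median 119) and 2.19 to 199 CPM at PP1 (median 8.09). This was a log2 fold change of -1.75 (SE 0.73, edgeR FDR 0.142, exact permutation p 0.00268), lower in 7 of 8 cows, and of -2.83 (FDR 0.00325) without the B5169 library labelled PP1. The PP1 libraries of cows B4987 and B5079 had 52.8 and 51.5 CPM of PCK1, and the remaining 7 had at most 13.0 CPM. HSD17B12, a reductase of FA elongation, had a log2 fold change of -1.26 (FDR 0.136) with that library and -1.99 (FDR 0.00175) without it. For ACAT2, the cytosolic thiolase at the start of sterol synthesis, these were -1.06 (FDR 0.0775) and -1.43 (FDR 0.00219).

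FFAR4, the receptor through which long-chain FA act on adipocytes, had 10.1 to 40.7 CPM at PreP (median 16.5) and 0 to 15.5 CPM at PP1 (median 2.13). With all libraries the log2 fold change was -2.06 (SE 0.691, edgeR FDR 0.0751, exact permutation p 0.000747), and it was -2.53 (FDR 0.0129) without the library labelled PP1 of cow B5169, while 8 of 8 cows had lower values at PP1. It was lower at PP1 in all 8 cows, cow B5169 included, and had 0 reads in the PP1 libraries of cows B5064 and B5102, which allows up to 0.138 and 0.203 CPM. AKT2, the main insulin-signalling kinase of adipocytes, had a log2 fold change of -0.72 (FDR 0.0862), and -0.93 (FDR 0.0045) without the library labelled PP1 of cow B5169. ANGPTL4, an inhibitor of lipoprotein lipase, had a positive log2 fold change of 0.83 (FDR 0.107), and 0.91 (FDR 0.0441) without it. PPARG had -0.42 (FDR 0.269) and -0.55 (FDR 0.091), so the adipocyte list held values in both directions.

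In FA oxidation, CRAT, which moves acetyl groups between carnitine and CoA, passed the FDR with all libraries (0.044) at a log2 fold change of -0.87, and was downregulated without the library labelled PP1 of cow B5169 (-1.14, FDR 0.000428). ACAA2, the thiolase that ends each turn of mitochondrial beta-oxidation, had 284 to 507 CPM at PreP (median 429) and 98.3 to 628 CPM at PP1 (median 142). Over the 19 libraries ACAA2 had a log2 fold change of -0.89 (SE 0.296, edgeR FDR 0.0742, exact permutation p 0.00274), with lower values in 7 of 8 cows, and leaving out the library labelled PP1 of cow B5169 gave -1.22 (FDR 0.000816). The ketone body enzyme BDH1 had 0.803 to 112 CPM at PreP (median 19.5) and 0.184 to 169.8 CPM at PP1 (median 1.12). This was a log2 fold change of -1.10 (SE 1.15, edgeR FDR 0.587, exact permutation p 0.0119), lower in 7 of 8 cows, and of -5.29 (FDR 0.000176) without the B5169 library labelled PP1. The 9 other PP1 libraries had at most 1.715 CPM. The library labelled PreP of cow B5169 had 0.803 CPM, the lowest of PreP, and this was the 1 cow of 8 with a higher value at PP1. BDH1 was named after its values were seen, as were GPT2, a mitochondrial alanine aminotransferase, and PCYT2, an enzyme of phosphatidylethanolamine synthesis. GPT2 had -1.72 (FDR 0.199) with all libraries and -3.79 (FDR 0.00011) without that library, and PCYT2 had -1.37 (FDR 0.181) and -2.76 (FDR 8.5e-05). The adjusted p with cow as a block and all libraries was 0.104 for INSIG1, 0.104 for PCK1, 0.0954 for ACAA2 and 0.134 for BDH1.

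**Figure D5:**
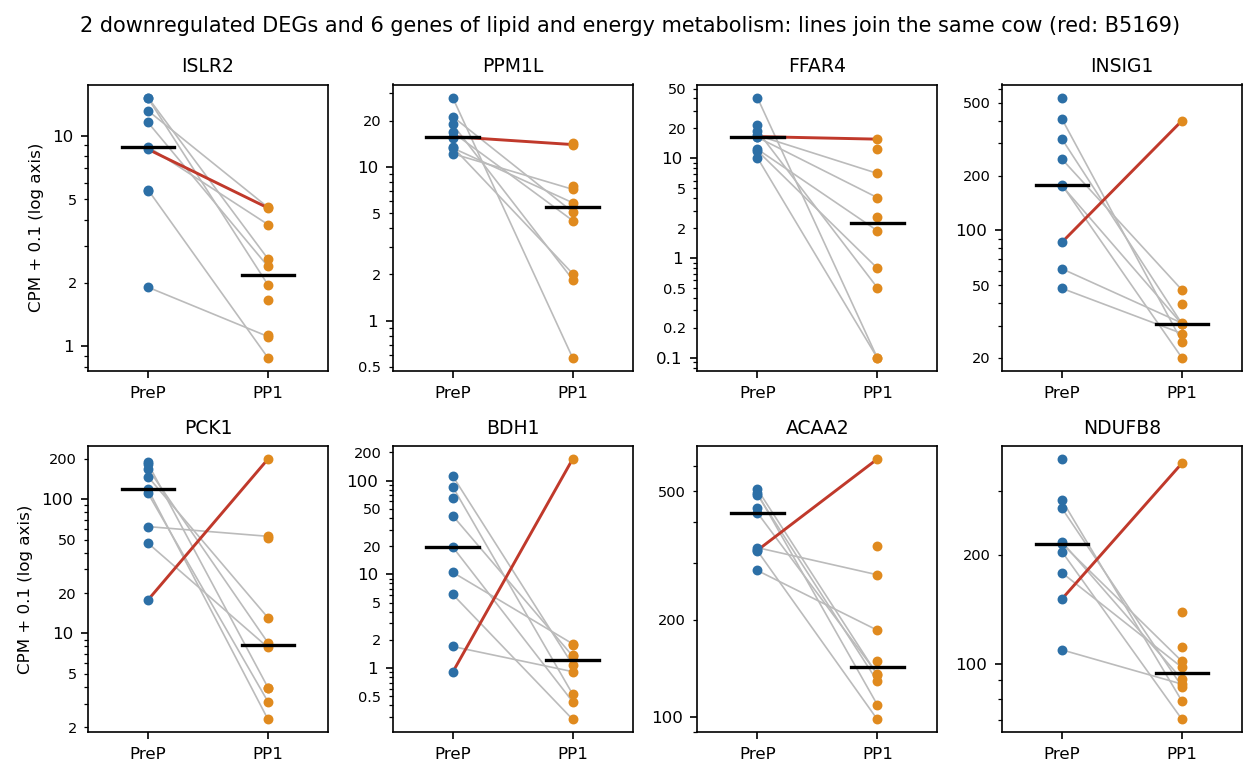
CPM plus 0.1 (y axis, logarithmic) of 8 genes in each PreP (blue) and PP1 (orange) library, with medians as black bars and lines joining the same cow. ISLR2 and PPM1L were downregulated in the fit to all libraries, and the other 6 genes passed without the library labelled PP1 of cow B5169, the end of the red line, and not with it.

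Most mitochondrial genes had negative log2 fold changes, and 0 of 55 over 3 lists passed in edgeR or DESeq2, with 23 at an unadjusted p under 0.05, beside 24.6% of all genes. Voom with sample quality weights called 5 of the 55, all lower at PP1, beside 4.14% of all genes, 4 of them in the respiratory chain. All 12 genes of the respiratory chain and ATP synthase had a negative log2 fold change, from -0.12 to -0.86, with a median of -0.57. NDUFB8, a subunit of complex I, had 109 to 368 CPM at PreP (median 214) and 69.98 to 358 CPM at PP1 (median 93.9). With all libraries the log2 fold change was -0.86 (SE 0.279, edgeR FDR 0.0671, exact permutation p 0.00414), and it was -1.21 (FDR 0.000259) without the library labelled PP1 of cow B5169, while 7 of 8 cows had lower values at PP1. Without the library labelled PP1 of cow B5169, 4 of the 12 were downregulated, beside 3.69% of all genes: NDUFB8, UQCRB (-1.29, FDR 0.000417) and UQCR10 (-1.16, FDR 0.00142) of complex III and ATP5MC3 (-1.21, FDR 0.000699) of the ATP synthase ring. The summed level of the 12 genes was 1369 to 3706 CPM at PreP, 1083 to 1686 CPM in the 9 other PP1 libraries and 4005 CPM in that of cow B5169.

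Of 23 genes of mitochondrial assembly, import and the citric acid cycle, 20 had a negative log2 fold change with a median of -0.33. COQ9, needed to make coenzyme Q, had -0.74 (FDR 0.0617) with all libraries and -1.03 (FDR 0.000237) without that library, and the complex I assembly factor NDUFAF7 was the other gene called there (-1.05, FDR 0.0082). Of 20 genes of the mitochondrial ribosome, 15 were negative, with a median of -0.17. MRPL4 and MRPL9 passed the FDR with all libraries (0.047 and 0.04997 from edgeR) at log2 fold changes of -0.62 and -0.56, short of the fold-change threshold.

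The remaining lists held few or no DEGs. In glycolysis and glycogen, 0 of 13 passed in edgeR or DESeq2 and 1 in voom, with 3 at an unadjusted p under 0.05, beside 24.6% of all genes, and a median of 0.07. The glycogen precursor enzyme UGP2 passed the FDR at 0.51 (FDR 0.0206), and the late glycolytic enzymes PKM (0.68, FDR 0.0772) and PGK1 (-0.53, FDR 0.159) had opposite signs. None of 18 genes of the cytosolic ribosome and translation initiation (median 0.20) and none of 20 immediate-early and stress regulators (median 0.14) passed in edgeR or DESeq2, with 1 and 5 at an unadjusted p under 0.05, beside 24.6% of all genes, and 0 and 1 called by voom. Without the library labelled PP1 of cow B5169, the regulator NR4A3 was upregulated. Of 18 amine, xenobiotic and redox enzymes, GSTM3 was the 1 DEG (5.56%, beside 0.693% of all genes down). An unadjusted p under 0.05 was found for 5 of the 18, beside 24.6% of all genes, and DESeq2 called 2 and voom 3 down. MAOB, an outer mitochondrial membrane amine oxidase, had 52.1 to 168 CPM at PreP (median 107) and 0.675 to 128 CPM at PP1 (median 21.9). Over the 19 libraries MAOB had a log2 fold change of -1.55 (SE 0.491, edgeR FDR 0.0616, exact permutation p 0.000714), with lower values in 7 of 8 cows, and leaving out the library labelled PP1 of cow B5169 gave -2.004 (FDR 0.00338). CYP1A1, a xenobiotic monooxygenase, was lower in all 8 cows (-1.48, FDR 0.124), and remained short of the threshold without that library (FDR 0.0702). MME, the membrane peptidase neprilysin, had 0.552 to 48.2 CPM at PreP (median 27.9) and 0.507 to 46.9 CPM at PP1 (median 1.84). This was a log2 fold change of -1.84 (SE 0.78, edgeR FDR 0.149, exact permutation p 0.0112), lower in 7 of 8 cows, and of -3.32 (FDR 0.000974) without the B5169 library labelled PP1. The library labelled PreP of cow B5169 had 0.552 CPM of MME and that labelled PP1 had 46.9 CPM. PLA2G2A, a secreted phospholipase, had at most 2 reads in any library and was not tested.

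Lists of other cell types gave a measure of tissue mixture. Of 23 skeletal muscle genes, CORO6 was the 1 DEG (4.35%, beside 0.693% of all genes down). In this list 5 had an unadjusted p under 0.05, beside 24.6% of all genes, and the summed level was 50.5 to 89.8 CPM at PreP and 52.2 to 76.4 CPM at PP1. None of 4 mammary epithelial genes passed in edgeR or DESeq2 and 1 did in voom, with 1 at an unadjusted p under 0.05, a median log2 fold change of 1.14 and sums of 27.6 to 72.7 and 30.6 to 137.0 CPM. None of 4 skin and hair genes passed in the 3 tools, with 1 at an unadjusted p under 0.05 and sums of 3.96 to 31.9 CPM at PreP and 0.878 to 22.5 CPM at PP1, mostly TGM3 (-1.01, FDR 0.194). None of 2 red cell genes passed in the 3 tools or at an unadjusted p under 0.05, with sums of at most 11.7 CPM. The skin sum had a median of 19.6 CPM at PreP and 7.84 CPM at PP1. Without the library labelled PP1 of cow B5169, 1 of the 4 mammary genes was upregulated, the lactoferrin gene LTF, which is also in the neutrophil list, and 1 of the 4 skin genes was downregulated, PADI1, beside 5.15% of all genes up and 3.69% down in that fit. Between the time points the ranges of all 4 sums overlapped. The part of these cells in the results above was not tested.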

How the data were processed

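The authors aligned reads to bosTau7 with HISAT2 2.1.0, counted them per Ensembl gene with HTSeq 0.6.1 and deposited raw counts (versions from the submitters' processing notes). Strand setting and annotation release are not given in the sources used here, so overlapping genes may share reads. The day 13 columns entered only the alternative fit with all 3 time points, and 0 deposited columns matched no sample. Here, genes reaching 3 reads in 1 or more of the 19 libraries were scaled by TMM and tested with edgeR 4.0.16 (quasi-likelihood, Benjamini-Hochberg FDR under 0.05, absolute log2 fold change over 1), without a cow term. Standard errors are the log2 fold change divided by the root of F. Single genes were also tested by two-sided exact permutation of the 19 libraries on log2 CPM (prior count 1), which does not use the pairing. Scripts were tested on simulated data.

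Symbols came from the annotation published with the study, of which a shortened copy with 1995 IDs was at hand, 1863 of them with a usable symbol. The 28 gene lists name 1313 genes, and 431 of these have an ID here, so counts over a list cover only part of it. Named genes are the 15 DEGs of smallest p in each direction, up to 4 of smallest p per list, genes the study's text names and the defining markers. CD300A, RASSF4, DLGAP5, CKAP2L, CCN3, TNC, PLTP, SPP2, CAMP, CD177, BDH1, GPT2, PCYT2, UQCR10 and NDUFAF7, where outside this rule, were picked with their values already in view. The comparison, its members and the gene lists were chosen with earlier results of these data known. Cows were paired by the animal number in the sample titles. Residuals of the same cow's libraries correlated from -0.164 (B5169) to 0.335 (B5165), mean 0.0987, against -0.00533 for different cows. Alternatives were cow as a block (edgeR, and limma 3.58.1 voom with a random effect), other filters and scalings, a likelihood ratio test, DESeq2 1.42.0, voom weights, all 3 time points, paired cows alone, no fold-change threshold, each cow left out, and, chosen after seeing the data, leaving out the library labelled PP1 of cow B5169. No 2 libraries were identical. Some genes are not reported here.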

Additional observations from a re-analysis of the deposited data

Results flagged for a closer look

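Dixon's test marked 28 of 162 group values of the named genes as holding a library far from the others. Chance alone marks about 1 in 20 independent values, but these genes are correlated and some were named because they are called without the library labelled PP1 of cow B5169, so no chance count applies. The library labelled PP1 of cow B5169 accounted for 19 of them. In CPM it was the lowest PP1 library by a wide gap, with the next lowest in brackets, for MSR1 14.7 (next 47), LY9 3.14 (next 14.4), SLAMF7 3.79 (next 21.4), ABRACL 3.73 (next 7.72), CD68 31.2 (next 103). It was the highest PP1 library, with the next highest in brackets, for MMD 111 (next 52.6), INSIG1 399.9 (next 47), GPT2 520.2 (next 35.7), BDH1 169.8 (next 1.715), PCYT2 439 (next 44.4), HSD17B12 399.7 (next 104), ACAT2 69.6 (next 24.2), NDUFB8 358 (next 139). The same held for UQCRB 168 (next 51.9), UQCR10 199 (next 83.4), ATP5MC3 372 (next 119), COQ9 123 (next 51.5), NDUFAF7 31.2 (next 11.4), MRPL4 95.2 (next 40.1).

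The other 9 were spread over 5 libraries. The PreP library of cow B5102 was lowest for SLAMF7 2.41 (next 4.79), BMP1 59.6 (next 101), ISLR2 1.81 (next 5.36), PKM 134 (next 233). The library labelled PreP of cow B5169 was lowest for SEL1L3 2.56 (next 9.27), MME 0.552 (next 6.18). The PP1 library of cow B5102 was lowest for MAOB 0.675 (next 11.4). The PreP library of cow B5090 was lowest for GPNMB 47 (next 80.8). The PreP library of cow B5176 was lowest for CCN3 38.2 (next 68.9).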

How the results depend on the processing

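The 744 DEGs (616 up, 128 down) became 58 (47 and 11) with cow as a replicate block in edgeR, a comparison paired by animal, in which the fit spends a parameter on each cow and 3 cows with 1 library carry no information. With cow as a random effect in limma voom there were 895 (463 and 432). The total was 411 (340 and 71) with only the 8 paired cows, 320 (278 and 42) with all 3 time points in 1 fit, and 1630 (949 and 681) without the library labelled PP1 of cow B5169. Voom with sample quality weights gave 1591 DEGs, 764 of them down. Downregulated DEGs numbered 265 in the likelihood ratio test and 271 in DESeq2, and dropping the fold-change threshold gave 1168 in all and 264 down. Leaving out each cow gave 296 (B5129) to 1748 (B5169) DEGs, 263 to 1013 up and 33 to 735 down. The cause was not tested where the construction does not show it. Counts under the other filters and scalings stayed within 1.5 times the value given.

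Of 1860 gene values compared over 81 genes, 1564 kept direction and side of the threshold, 197 kept direction but no longer passed, 99 newly passed and 0 reversed. The 3 reads needed to enter the test equal 0.137 to 0.203 CPM, so genes near that level are imprecise. Separate animals gave the libraries of a time point, but the p-values treat the libraries of 1 cow as independent.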
